A study of Homo sapiens with 4 samples.

Results

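The genes described are 10 genes of the endoplasmic reticulum (ER) that fold secretory proteins or belong to the unfolded protein response: HSPA5, HSP90B1, HYOU1, DNAJB9, SDF2L1, PDIA4, CALR, HERPUD1, EDEM1 and XBP1. They were chosen by symbol from the 24462 genes counted in HepG2 cells, and no measured value entered the rule. Earlier results of these data were known when the genes were chosen. All 10 were listed once in the tables and had more than 10 reads in every library.

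HepG2 is an established human liver cancer line, which the paper lists as hepatocellular carcinoma. The cells were kept in RPMI medium with fetal bovine serum. The study had 4 libraries, 1 for each condition. In 1 arm, cells were given PD0332991, an inhibitor of the cell cycle kinases CDK4 and CDK6, or its solvent DMSO. In the other arm, cells were transfected with siRNA oligos against both kinases (CDK4/6 KD) or with scrambled siRNA. The dose of the inhibitor and the times at which the sequenced cells were collected are not given in the sources used here. The comparisons ask how gene expression differs when the kinases are inhibited or depleted.

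RNA was measured by QuantSeq 3′ sequencing, which reads the end of each polyadenylated transcript, so that counts do not grow with transcript length and levels can be set side by side between genes. The libraries held 8983848 to 11176880 reads. Levels are given as CPM, a gene's reads relative to the total of its library, after TMM scaling, a correction of library size from edgeR. A fold change is the ratio of the scaled levels with 0.5 reads added to each. Its interval comes from how a gene's reads divide between the libraries compared (exact 95% Clopper-Pearson), which covers counting error only, and copies made by PCR were not told apart. Without replicates no test was possible, so every difference below is between libraries and not shown for conditions. In whole cultures, fewer cells of a kind and less RNA per cell cannot be told apart.

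CDK4 had 301 CPM in DMSO, 257 in PD0332991, 354 in scrambled and 71.9 in CDK4/6 KD. CDK6 had 515, 479, 536 and 129 CPM in the same order. Both siRNA targets were therefore lowest in the library labelled as their knockdown (fold changes: 0.203 and 0.241 against scrambled). All 10 hepatocyte markers had at least 10 reads in each library. The summed level of 15 keratinocyte markers was 210 CPM in DMSO, 228 in PD0332991, 372 in scrambled and 211 in CDK4/6 KD. Most of that sum was SFN and KRT10 together. SFN had 1221 reads in DMSO, 563 in PD0332991, 3266 in scrambled and 1152 in CDK4/6 KD. KRT10 had 606, 701, 514 and 986 reads in the same order, more than SFN in PD0332991. The other keratins did not share 1 pattern. KRT15 had 7, 10, 13 and 17 reads in the same order and, like KRT10, was highest in CDK4/6 KD. KRT5 had 2, 113, 13 and 43 reads in the same order, KRT14 had 9, 249, 31 and 74, KRT6A had 9, 150, 37 and 28, and KRT17 had 15, 139, 16 and 36, so that all 4 were highest in PD0332991. TP63 and COL17A1 were at 0 in scrambled, KRT1 and COL17A1 in DMSO, and DSG3 and DSC3 in CDK4/6 KD. The summed level of 8 fibroblast markers was 49.7, 80.9, 9.07 and 23.0 CPM in the order used for CDK6, with DCN at 0 in DMSO and in scrambled. The summed level of 6 leukocyte markers was 753 CPM in DMSO, 519 in PD0332991, 1035 in scrambled and 509 in CDK4/6 KD, nearly all of it LYZ, with 6780, 4587, 10932 and 5676 reads. CD68 had 75 to 136 reads and CD14 had 4 to 29, while CD3E had no read in any library and PTPRC had none in PD0332991, scrambled or CDK4/6 KD. The part of these differences in the results below was not tested.

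The ER folds proteins that enter the secretory pathway, a heavy load in liver cells, which export most plasma proteins. When unfolded proteins build up, the sensors IRE1, PERK and ATF6 are released from the chaperone BiP. IRE1 splices the mRNA of the transcription factor XBP1, PERK slows translation and favours ATF4, and ATF6 is cut to free a transcription factor. Spliced XBP1 and cleaved ATF6 raise genes for chaperones and for ER-associated degradation (ERAD), which returns misfolded proteins to the cytosol. ATF6 acts with NF-Y at the ER stress response element (ERSE) (CCAAT, then 9 N, then CCACG), and at ERSE-II, which is ATTGG, 1 base of any kind and CCACG.

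Promoters are shown first, because these genes are known for an element that many of their promoters share. In the RefSeq table for GRCh38.p14, which gives 250 bases before and 50 after each start, all 10 genes had an entry (12 promoters in all). The 250 bases before the start of HSPA5 are printed on the strand of the gene, chr9:125241344-125241593, minus strand, with CCAAT and CCACG in capitals on either strand.
HSPA5 upstream: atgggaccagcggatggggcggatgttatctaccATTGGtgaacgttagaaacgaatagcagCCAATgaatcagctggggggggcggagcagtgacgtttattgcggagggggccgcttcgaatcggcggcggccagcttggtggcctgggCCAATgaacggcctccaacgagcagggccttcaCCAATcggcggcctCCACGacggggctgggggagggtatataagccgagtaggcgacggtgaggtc

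The last CCAAT and the only CCACG of that stretch form an ERSE, from 66 to 48 bases before the start. A full ERSE on either strand was found in 4 of the 10 genes, against 27 (0.0769%) of 35116 promoters in the table. The other 3 genes are shown with 20 bases on each side, read in the direction of the element, and capitals mark its ends.
HSP90B1, chr12:103930196-103930254, plus strand: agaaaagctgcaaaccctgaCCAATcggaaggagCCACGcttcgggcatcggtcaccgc
HSP90B1, chr12:103930301-103930359, minus strand: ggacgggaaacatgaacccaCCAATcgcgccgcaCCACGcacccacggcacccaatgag
CALR, chr19:12938364-12938422, minus strand: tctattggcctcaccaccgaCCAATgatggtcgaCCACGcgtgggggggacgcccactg
XBP1, chr22:28800583-28800641, minus strand: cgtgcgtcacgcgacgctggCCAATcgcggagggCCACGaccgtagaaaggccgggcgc

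ERSE-II was found in 3 further genes, against 19 (0.0541%) of all promoters. Capitals mark the whole element.
HERPUD1, chr16:56932005-56932055, plus strand: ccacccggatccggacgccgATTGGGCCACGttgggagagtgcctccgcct
HYOU1, chr11:119057360-119057410, plus strand: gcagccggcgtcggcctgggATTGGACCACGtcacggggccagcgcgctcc
HYOU1, chr11:119057254-119057304, plus strand: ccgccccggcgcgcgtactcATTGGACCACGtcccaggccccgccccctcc
SDF2L1, chr22:21642094-21642144, minus strand: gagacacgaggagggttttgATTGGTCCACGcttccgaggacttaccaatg

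One or the other element was thus present in 7 of the 10 genes and in 46 (0.131%) of all promoters. The genes DNAJB9, PDIA4 and EDEM1 had neither in this window, though each held CCAAT and CCACG apart, as all 10 did. Those short motifs are common, in 34.6% and 38.1% of all promoters. The core TGACGTG of the unfolded protein response element, bound by XBP1, was found in HYOU1, where it overlaps an ERSE-II, and in 1.97% of all promoters. A match describes letters and not a bound site.

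**Figure D1:**
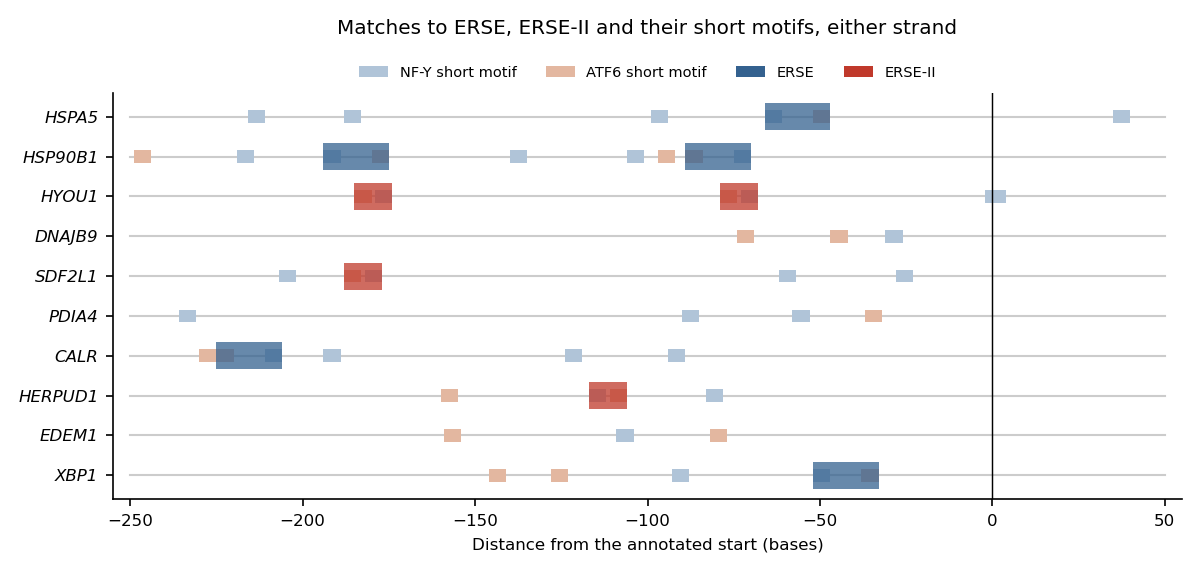
Matches to ERSE, ERSE-II and their short motifs (CCAAT for NF-Y, CCACG for ATF6) on either strand, by distance in bases from the annotated start, for 1 promoter of each gene (PDIA4 and XBP1 have 2 in the table, and the listed first is drawn). Full elements lie on 7 of the 10 lines, at varying distances, and the short motifs apart on DNAJB9, PDIA4 and EDEM1.

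The levels of the 10 genes did not move as a block. HSPA5 and CALR were lower in both treated libraries than in their own controls. HSP90B1, HYOU1, SDF2L1 and PDIA4 stood above scrambled in CDK4/6 KD and below DMSO in PD0332991. HERPUD1 was higher in both treated libraries.

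**Figure D2:**
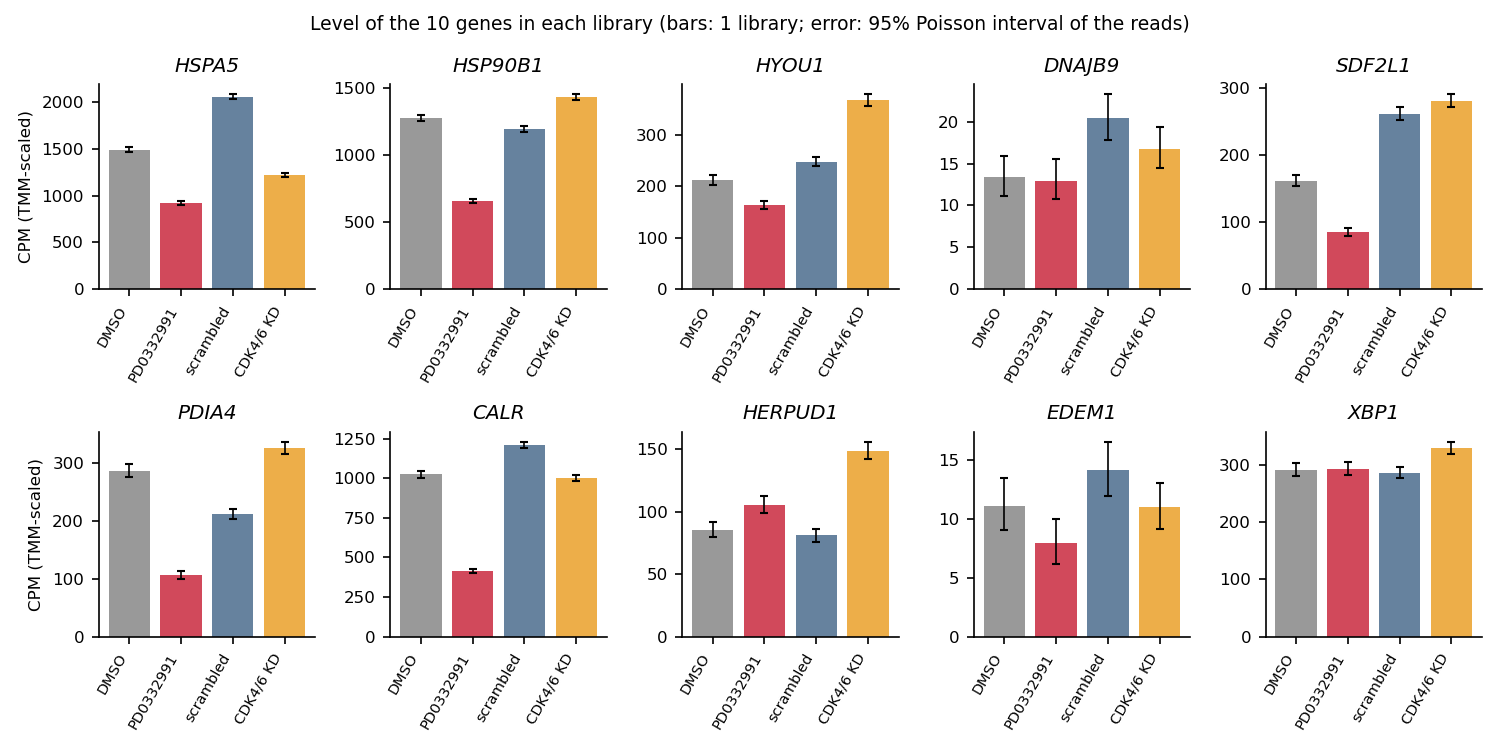
Level of each of the 10 genes (CPM after TMM scaling, y axis from 0, own scale for each gene) in the 4 libraries. Each bar is 1 library and its error bar the exact 95% Poisson interval of its reads; PD0332991 is the lowest bar for 8 of the 10 genes, and HERPUD1 and XBP1 are the exceptions.

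HSPA5 encodes BiP, the Hsp70 of the ER lumen, which holds the stress sensors inactive and binds unfolded chains (chr9:125234853-125241330, minus strand, GRCh38 with GENCODE 29, as for the other genes). It had 1489 CPM in DMSO, 924 in PD0332991, 2055 in scrambled and 1217 in CDK4/6 KD. Both treated libraries lay below both controls. The fold change was 0.592 (0.579 to 0.605) in CDK4/6 KD and 0.621 (0.604 to 0.638) after PD0332991. The controls differed as well, since scrambled stood 1.38-fold (1.35 to 1.41) above DMSO. Set against DMSO, CDK4/6 KD had a fold change of 0.817 (0.798 to 0.837). Among the genes tested, 12.4% had a fold change as low or lower in CDK4/6 KD, and 12.0% after PD0332991.

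HSP90B1 encodes GRP94, the Hsp90 of the ER, which folds a narrower set of clients such as integrins and Toll-like receptors (chr12:103930107-103953645, plus strand). Its level was 1273 CPM in DMSO, 656 in PD0332991, 1194 in scrambled and 1429 in CDK4/6 KD. PD0332991 stood far below the other three libraries, which were close together. The fold change was 1.20 (1.17 to 1.22) in CDK4/6 KD and 0.515 (0.499 to 0.531) after PD0332991. Part of its reads may be shared with a processed pseudogene, HSP90B2P, whose annotated sequence is 93.4% identical over 2417 aligned bases. That alignment stops at base 2589 of the 2858 bases of the HSP90B1 transcript, so the 3′ end itself lies outside it. Whether reads were shared was not tested. HSP90B2P had 3774 reads in DMSO, 2258 in PD0332991, 5085 in scrambled and 5349 in CDK4/6 KD, between 0.324 and 0.398 for each read of HSP90B1. The 3′ end of HSP90B1 also overlaps C12orf73, which had 131 to 169 reads. With HSP90B1 and HSP90B2P summed, the fold changes were 1.14 in CDK4/6 KD and 0.536 after PD0332991.

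HYOU1 encodes GRP170, which exchanges the nucleotide on BiP and also acts as a chaperone itself (chr11:119044189-119057202, minus strand). It had 211 CPM in DMSO, 163 in PD0332991, 248 in scrambled and 367 in CDK4/6 KD, which was the highest of the libraries. Against scrambled, CDK4/6 KD had a fold change of 1.48 (1.41 to 1.56). PD0332991 had 0.772 (0.721 to 0.826) against DMSO.

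SDF2L1 encodes a small ER protein found in a complex with BiP and its J-domain partners (chr22:21642261-21644298, plus strand). Its level was 162 CPM in DMSO, 85.8 in PD0332991, 262 in scrambled and 281 in CDK4/6 KD. The siRNA libraries were both above the inhibitor arm, so the difference between the controls (fold change: 1.62, 1.52 to 1.72) was larger than that between CDK4/6 KD and scrambled (fold change: 1.07, 1.02 to 1.13). After PD0332991 the fold change was 0.531 (0.486 to 0.579).

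DNAJB9 encodes ERdj4, a J-domain co-chaperone of BiP that also represses IRE1 (chr7:108569568-108574850, plus strand). It was counted thinly, with 122 reads in DMSO, 118 in PD0332991, 218 in scrambled and 190 in CDK4/6 KD, or 13.4, 13.0, 20.4 and 16.8 CPM. Neither treated library was set apart from its control at this depth, with fold changes of 0.824 (0.675 to 1.01) in CDK4/6 KD and 0.971 (0.747 to 1.26) after PD0332991. The controls did stand apart, at 1.52-fold (1.22 to 1.92).

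PDIA4 encodes ERp72, a protein disulfide isomerase (chr7:149003062-149028641, minus strand). It had 287 CPM in DMSO, 106 in PD0332991, 212 in scrambled and 327 in CDK4/6 KD. It gave the lowest fold change of the 10 genes after PD0332991, 0.371 (0.344 to 0.400), while its fold change in CDK4/6 KD was 1.54 (1.46 to 1.62). Scrambled lay under DMSO (fold change: 0.740, 0.699 to 0.783), and against DMSO the level in CDK4/6 KD was 1.14-fold (1.08 to 1.20).

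CALR encodes calreticulin, a calcium-binding lectin that retains glycoproteins until they are folded (chr19:12938578-12944489, plus strand). Its level was 1024 CPM in DMSO, 413 in PD0332991, 1211 in scrambled and 1001 in CDK4/6 KD. The fold change was 0.403 (0.388 to 0.419) after PD0332991 and 0.826 (0.806 to 0.848) in CDK4/6 KD. Against DMSO the level in CDK4/6 KD gave 0.977 (0.951 to 1.00), so that its position below a control rests on scrambled. In the annotation, antisense genes overlap the 3′ ends of CALR and HYOU1, and the strand setting of the counts is not given in the sources used here.

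HERPUD1 encodes a membrane protein that organises the ERAD ubiquitin ligase complex, and its transcription also responds to ATF4 (chr16:56932048-56944863, plus strand). It had 85.5 CPM in DMSO, 105 in PD0332991, 81.0 in scrambled and 149 in CDK4/6 KD. Both treated libraries were above both controls, which was the case for no other gene whose intervals set it apart in both arms. The fold change was 1.84 (1.69 to 2.00) in CDK4/6 KD and 1.23 (1.12 to 1.36) after PD0332991. The controls differed little (fold change: 0.948, 0.860 to 1.05).

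EDEM1 encodes a mannosidase-like protein that marks misfolded glycoproteins for ERAD (chr3:5187646-5219957, plus strand). With 101 reads in DMSO, 72 in PD0332991, 151 in scrambled and 124 in CDK4/6 KD, it was the least counted of the 10 genes. These reads gave 11.1, 7.91, 14.1 and 10.95 CPM. Its intervals came close to 1 in both arms, with fold changes of 0.777 (0.607 to 0.991) in CDK4/6 KD and 0.717 (0.521 to 0.977) after PD0332991. Against DMSO the level in CDK4/6 KD gave 0.991 (0.756 to 1.30), so the lower value in that arm rests on scrambled.

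XBP1 encodes the transcription factor whose mRNA IRE1 splices (chr22:28794555-28800597, minus strand). Its level was 291 CPM in DMSO, 293 in PD0332991, 286 in scrambled and 330 in CDK4/6 KD. The first 3 of these were within counting error of each other. The fold change was 1.15 (1.10 to 1.21) in CDK4/6 KD and 1.01 (0.954 to 1.06) after PD0332991. Counts at the 3′ end include the spliced and the unspliced mRNA alike, so they give no measure of IRE1 activity.

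In CDK4/6 KD against scrambled, 0 of the 10 genes reached 2-fold in either direction, whereas 9.19% of the 13617 genes tested did so upward and 7.62% downward. Among better counted genes, which had a mean of 500 reads or more and include 8 of the 10, these shares were 2.38% and 5.19%, so that few or none of 10 such genes would be called at the background share. HERPUD1 and PDIA4 passed 1.5-fold upward and HSPA5 downward, beside 19.4% and 17.4% of all genes tested. The interval lay wholly above 1 for 6 genes and wholly under 1 for 3, beside 30% and 31.9% of all genes tested and 32.3% and 45.9% of the better counted ones. On the log2 scale the 10 fold changes had a median of 0.15, beside -0.0036 for all genes.

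After PD0332991, PDIA4 and CALR were at least 2-fold lower and 0 genes at least 2-fold higher. Among the 13443 genes tested, 7.06% were at least 2-fold lower and 7.49% higher. Among better counted genes the shares were 4.03% lower and 1.11% higher. HSP90B1 (0.515) and SDF2L1 (0.531) lay just inside the threshold, and with HSPA5 (0.621) they make 5 genes at or under the 1.5-fold mark downward and 0 upward, beside 15.1% and 16.8% of all genes. The interval was wholly under 1 for 7 of the 10 genes and wholly above 1 for HERPUD1 alone, beside 28.6% and 28.1% of all genes and 40.4% and 35.6% of the better counted ones. The median log2 fold change was -0.58, beside 0.02 for all genes.

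The control libraries differed too. In scrambled against DMSO, 0 of the 10 genes reached 2-fold in either direction, beside 5.3% upward and 6.64% downward of the 13303 genes tested and 1.52% and 1.76% of the better counted ones. SDF2L1 and DNAJB9 passed 1.5-fold upward and 0 genes downward, beside 13.4% and 15.7%. The interval was wholly above 1 for 5 of the 10 genes and wholly under 1 for 2, beside 28.3% and 28% of all genes and 44.2% and 32% of the better counted ones, so these counts are near the background. The median log2 fold change of 0.24 was larger than the 0.15 found in CDK4/6 KD. Against the control of the other arm, scrambled, the level in PD0332991 was at least 2-fold lower for HSPA5, SDF2L1 and CALR (fold changes: 0.450, 0.328 and 0.341) and for 8.17% of all genes tested. It was at least 2-fold higher for 0 of the 10 genes and for 10.6% of all, and PDIA4 had 0.502.

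**Figure D3:**
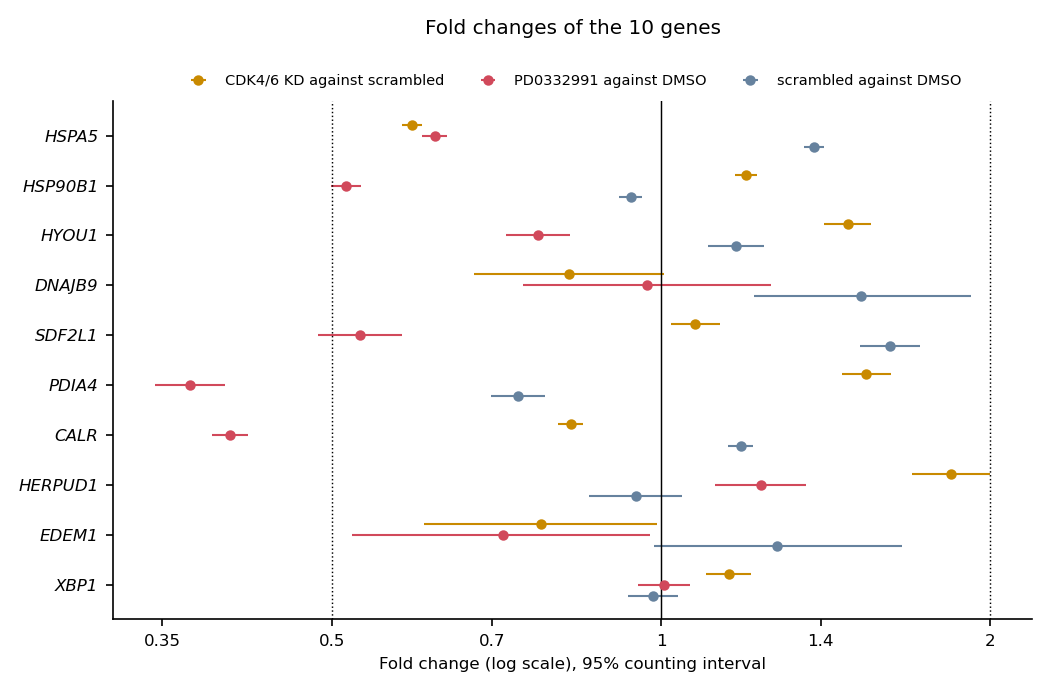
Fold change of each of the 10 genes (log axis) in CDK4/6 KD against scrambled, PD0332991 against DMSO and scrambled against DMSO, with 95% counting intervals; the solid line marks 1 and dotted lines 2-fold. PDIA4 and CALR after PD0332991 lie beyond the lower dotted line, and HSPA5 lies at 0.592 and 0.621 in the treated libraries.

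Across the arms, the intervals of HSP90B1, HYOU1, SDF2L1 and PDIA4 were on opposite sides of 1, those of HSPA5, CALR and EDEM1 were both under 1, and those of HERPUD1 were both above 1. DNAJB9 and XBP1 had an interval that included 1. The 4 genes on opposite sides all lay above 1 in CDK4/6 KD and under 1 after PD0332991, as did 6.37% of the 13099 genes tested in both arms and 9.91% of the better counted ones. The reverse was found for 6.57% of all genes and 11.8% of the better counted ones. Both intervals were under 1 for 14.2% of all genes and 23.4% of the better counted ones, and both above 1 for 11.8% and 15.6%. With DMSO as the control of both arms, CALR and EDEM1 had intervals in CDK4/6 KD that included 1. Of the 102 other genes of the pathway tested in both arms, 18 were above 1 in CDK4/6 KD and under 1 after PD0332991, and 4 were the reverse. A further 19 were above 1 in both and 12 under 1 in both. Each arm had its own control library.

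The 10 genes together took 0.486% of the reads in DMSO, 0.281% in PD0332991, 0.535% in scrambled and 0.528% in CDK4/6 KD. The share after PD0332991 was 0.578 (0.569 to 0.587) of that in DMSO. In CDK4/6 KD it was 0.987 (0.976 to 0.998) of that in scrambled, but the balance within the set differed. HSPA5 made up 36.8% of the reads on the 10 genes in scrambled and 23.7% in CDK4/6 KD, and HSP90B1 went from 21.4% to 27.9%. Without HSPA5, the share in CDK4/6 KD was 1.19 times that in scrambled.

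Ratios of reads within a library do not depend on scaling between libraries. There were 0.581 reads of HSP90B1 for each read of HSPA5 in scrambled and 1.17 in CDK4/6 KD. Without the reads of HSP90B2P, HSP90B1 was the more counted of the pair only in CDK4/6 KD. In DMSO, HSP90B1 had 11636 reads, HSP90B2P 3774 and HSPA5 13606, so with the pseudogene added HSP90B1 would pass HSPA5 there too. HSPA5 had the lowest fold change of the 10 genes in CDK4/6 KD, so the other 9 ratios to it were bound to be higher there, and only their sizes are of note. From scrambled to CDK4/6 KD the ratio went up 3.11-fold (2.86 to 3.38) for HERPUD1, 2.60-fold for PDIA4 and 2.50-fold for HYOU1, and 1.31-fold (1.03 to 1.66) for EDEM1. These sizes depend on scrambled, where the ratio of PDIA4 was 0.536 (0.504 to 0.569) of that in DMSO. From DMSO to CDK4/6 KD it went up 2.14-fold for HERPUD1, 2.12-fold for HYOU1 and 1.39-fold (1.32 to 1.47) for PDIA4. After PD0332991 the ratios parted, as HERPUD1 gained 1.99-fold (1.80 to 2.19) and XBP1 1.62-fold on HSPA5. In the same pair of libraries, the changes were 0.598 (0.553 to 0.647) for PDIA4 and 0.650 for CALR.

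**Figure D4:**
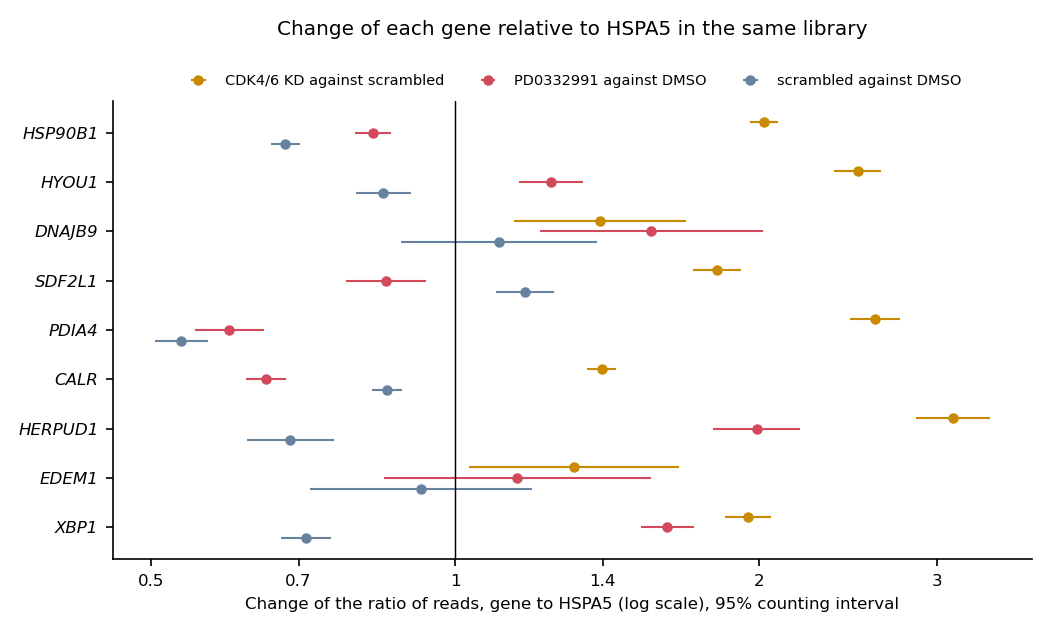
Change of the ratio of reads between each gene and HSPA5 of the same library (log axis) for 3 pairs of libraries, with 95% counting intervals. The points for CDK4/6 KD lie above 1 by construction, since HSPA5 had the lowest fold change there, and spread from 1.31 for EDEM1 to 3.11 for HERPUD1; those for PD0332991 lie on both sides.

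BiP has a cytosolic relative, HSPA8, which folds new proteins outside the ER. There were 2.97 reads of HSPA5 for each read of HSPA8 in DMSO, 2.88 in PD0332991, 3.41 in scrambled and 3.36 in CDK4/6 KD. The ratio did not differ beyond counting error in CDK4/6 KD (change: 0.984, 0.941 to 1.03) or after PD0332991 (change: 0.969, 0.918 to 1.02), as both genes were lower in the treated libraries. The same did not hold for GRP94 and its cytosolic relative HSP90AB1. Their ratio was 0.224 in DMSO, 0.120 in PD0332991, 0.172 in scrambled and 0.287 in CDK4/6 KD.

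Over the 4 libraries and 4125 genes that averaged 500 reads or more, the genes outside the lists whose levels most resembled HSPA5, by distance between log2 profiles, were RPF2, PNO1, NDE1, FAM46A and NSUN2. RPF2, a ribosome assembly factor, had 134 CPM in DMSO, 75.1 in PD0332991, 176 in scrambled and 104 in CDK4/6 KD. DNAJB9 and EDEM1 had too few reads to be ranked. Of the 7 members that were, CALR came closest to HSPA5, at place 883, and HERPUD1 was farthest, at place 3680. With only 4 libraries, many genes share a profile of this kind.

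The wider pathway was described with 107 other genes in 7 roles. In CDK4/6 KD, 7 of the 104 tested reached 2-fold upward and 0 downward, beside 9.19% and 7.62% of all genes tested. Intervals lay above 1 for 57 and under 1 for 24, beside 30% and 31.9% of all genes. The median log2 fold change was 0.18. After PD0332991, 3 of 103 were at least 2-fold higher and 3 lower, beside 7.49% and 7.06% of all genes. Of the intervals, 29 were above 1 and 36 under 1, beside 28.1% and 28.6% of all genes, and the median was -0.02. In scrambled against DMSO, 59 intervals were above 1 and 19 under 1, beside 28.3% and 28% of all genes, with a median of 0.22. The count above 1 was thus about as high between the controls as in CDK4/6 KD. The 10 genes after PD0332991 thus had a lower median than the rest of the pathway, a difference that was not tested.

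The other partners of BiP had a median log2 fold change of 0.39 in CDK4/6 KD, with 7 of 8 intervals above 1. The share above 1 was 30% of all genes tested and 32.3% of the better counted ones. In scrambled against DMSO, 5 of the 8 intervals were above 1, beside 28.3% of all genes tested and 44.2% of the better counted ones. SEC63, which couples BiP to the translocation channel, had 117 CPM in DMSO, 139 in PD0332991, 66.0 in scrambled and 199 in CDK4/6 KD. Its fold change of 3.02 in CDK4/6 KD was beside one of 0.566 in scrambled against DMSO. DNAJC3 had the firmest lower value of the role in CDK4/6 KD (fold change: 0.735). MANF, a secreted ER stress protein that binds BiP, had 209 CPM in DMSO, 87.1 in PD0332991, 229 in scrambled and 349 in CDK4/6 KD. Its fold changes of 0.417 and 1.52 put it with PDIA4 and HYOU1, under 1 after PD0332991 and above 1 in CDK4/6 KD.

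Among the enzymes of disulfide formation, 9 of 19 intervals were above 1 in CDK4/6 KD and 9 of 19 under 1 after PD0332991. The same shares were 30% and 28.6% of all genes tested, and 32.3% and 40.4% of the better counted ones. In scrambled against DMSO, 10 of the 19 intervals were above 1, beside 28.3% of all genes tested and 44.2% of the better counted ones. In CDK4/6 KD, the firmest values were 1.65 for PDIA5 and 0.648 for the oxidase ERO1A. CRELD2, an ER stress-induced isomerase, had the firmest lower value after PD0332991 (fold change: 0.386), and ERP29 the firmest higher one (1.70). An ERSE was found in 4 of the 90 other pathway genes with a promoter in the table, namely PDIA6, ERO1B, CRELD2 and CANX. Their fold changes after PD0332991 were 0.779, 1.86, 0.386 and 1.18. These 4 genes lay on both sides of 1, whereas of the genes of the set with an ERSE, HSPA5, HSP90B1 and CALR lay under 1 and the interval of XBP1 included 1. PDIA6 overlaps ATP6V1C2 on the opposite strand at its 3′ end. ATP6V1C2 had 8237 reads in DMSO, 6434 in PD0332991, 12096 in scrambled and 15643 in CDK4/6 KD. PDIA6 had 8635, 6702, 12725 and 16235 reads in the same order, so the PDIA6 values are uncertain.

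In the calnexin cycle, MOGS (fold change: 1.93) and UGGT1 (0.753) were the firmest in CDK4/6 KD, and GANAB (1.22) and UGGT1 (0.844) after PD0332991. MOGS had 95.8 CPM in DMSO, 53.6 in scrambled and 104 in CDK4/6 KD. UGGT1 had 147, 204 and 153 CPM in the same order, so both values in CDK4/6 KD rest largely on scrambled. In ERAD, where HERPUD1 and EDEM1 act, the median log2 fold change of the other genes was 0.06 in CDK4/6 KD and 0.01 after PD0332991. The firmest values in CDK4/6 KD were 1.72 for HERPUD2 and 0.585 for UBE2J1. After PD0332991, SYVN1, the ubiquitin ligase that HERPUD1 serves, had the firmest lower value (fold change: 0.729), and its 3′ end overlaps FAU and MRPL49. MRPL49, on the opposite strand, had 1287 reads in DMSO, 918 in PD0332991, 1505 in scrambled and 1241 in CDK4/6 KD. SYVN1 had 1289, 936, 1418 and 1321 reads in the same order, so the SYVN1 values are uncertain. For translocation and signal peptide cleavage, 16 of 23 intervals were above 1 in CDK4/6 KD and 13 of 23 under 1 after PD0332991. The same shares were 30% and 28.6% of all genes tested, and 32.3% and 40.4% of the better counted ones. In scrambled against DMSO, 14 of the 23 intervals were above 1, beside 28.3% of all genes tested and 44.2% of the better counted ones. TRAM1 (2.12) and SEC61A1 (0.556), both of the translocation channel, were the firmest in CDK4/6 KD. DAD1 (1.15) and RPN1 (0.696), both of the oligosaccharyltransferase, were the firmest after PD0332991.

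Among the sensors and their proteases, MBTPS1, which cuts ATF6, had 110 CPM in DMSO, 129 in PD0332991, 56.6 in scrambled and 152 in CDK4/6 KD. Its fold change of 2.69 in CDK4/6 KD was set against a scrambled level that was 0.516 of that in DMSO. WFS1 had a fold change of 0.626 in CDK4/6 KD. Its level was 71.2 CPM in DMSO, 113 in scrambled and 70.9 in CDK4/6 KD, so the lower value rests on scrambled. After PD0332991, the firmest values were 1.43 for TMBIM6 and 0.800 for CREB3L2.

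The PERK branch had the highest median of the roles in both arms, with a log2 fold change of 0.43 in CDK4/6 KD and 0.59 after PD0332991, and of 0.58 in scrambled against DMSO. NUPR1, a stress cofactor, had 50.02 CPM in DMSO, 235 in PD0332991, 50.9 in scrambled and 162 in CDK4/6 KD, and was higher in both treated libraries (fold changes: 4.69 after PD0332991 and 3.17 in CDK4/6 KD). CHAC1, a target of ATF4, had 50 reads in CDK4/6 KD and 7 in scrambled (fold change: 6.38, 3.05 to 17.7). ATF4 and DDIT3, the gene of CHOP, were named after their values were seen. ATF4 had 579 CPM in DMSO, 1352 in PD0332991, 988 in scrambled and 1340 in CDK4/6 KD. DDIT3 had 78.4, 151, 132 and 192 CPM in the same order. Its 3′ end overlaps MARS on the opposite strand. MARS had 1180, 2226, 2170 and 3318 reads, in parallel with the 716, 1374, 1409 and 2170 of DDIT3, so the DDIT3 values are uncertain. DMSO was the lowest library for ATF4 and DDIT3. After PD0332991 ATF4 was 2.34-fold (2.26 to 2.41) higher while BiP was at 0.621.

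The list of this branch also held ERN2, which is a relative of IRE1 and not part of it. Its 3′ end overlaps PLK1, a mitotic kinase gene on the opposite strand. ERN2 had 3631 reads in DMSO, 440 in PD0332991, 2602 in scrambled and 1680 in CDK4/6 KD, close to the 4026, 503, 2945 and 1840 reads of PLK1. The ERN2 values (fold changes: 0.122 and 0.610) are therefore uncertain. Without ERN2, the medians of the list were 0.44 in CDK4/6 KD and 0.62 after PD0332991.

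**Figure D5:**
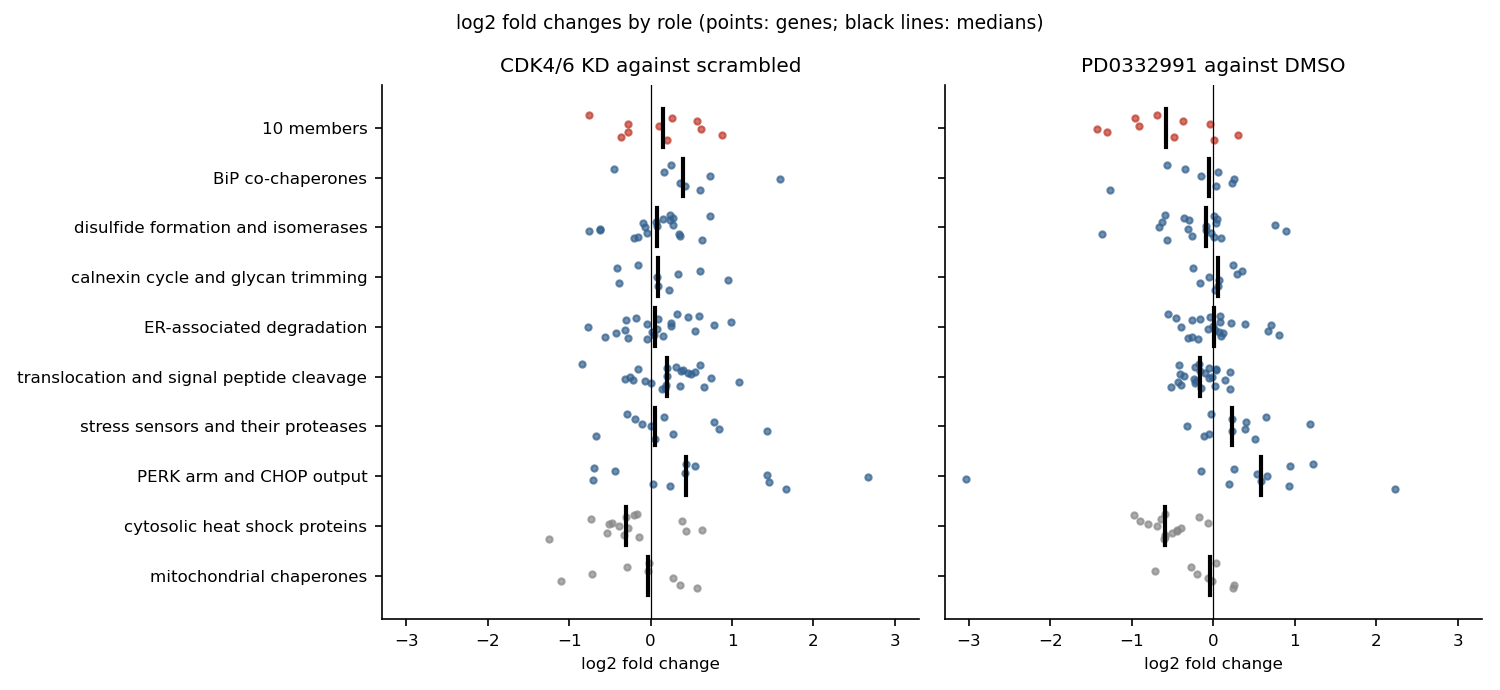
log2 fold changes of the 10 genes (red), of other pathway genes by role (blue) and of cytosolic and mitochondrial chaperones (grey), for CDK4/6 KD against scrambled and PD0332991 against DMSO. Each point is a gene and black lines are medians, which for the 10 genes lie at 0.15 and -0.58; the lowest point after PD0332991 is ERN2.

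Chaperones outside the ER gave a comparison. Among 15 cytosolic heat shock proteins, 15 intervals were under 1 after PD0332991 and 12 in CDK4/6 KD, with median log2 fold changes of -0.59 and -0.30. The shares under 1 were 28.6% and 31.9% of all genes tested, and 40.4% and 45.9% of the better counted ones. In scrambled against DMSO, 10 of the 15 intervals were above 1 and 3 under 1, beside 28.3% and 28% of all genes tested. Among the better counted genes these shares were 44.2% and 32%. Against DMSO, CDK4/6 KD had 10 intervals under 1 and a median of -0.19. The share under 1 there was 30.5% of all genes tested and 40.6% of the better counted ones. HSP90AA1 was the firmest after PD0332991 (fold change: 0.536), and STIP1, which joins Hsp70 to Hsp90, in CDK4/6 KD (0.421). HSPB1 was the firmest higher gene in CDK4/6 KD (1.55). The median of the cytosolic list after PD0332991 was thus close to the -0.58 of the 10 ER genes. TCP1, the gene at that median (fold change: 0.663), overlaps ACAT2 on the opposite strand at its 3′ end. ACAT2 had 7706 reads in DMSO and 5166 in PD0332991, near the 8127 and 5373 of TCP1, so the TCP1 values are uncertain. HSPA1A (0.662) and CCT5 (0.665) lay beside it. The 8 mitochondrial chaperones had medians of -0.04 and -0.03, with GRPEL1 (0.465) and CLPP (1.48) the firmest in CDK4/6 KD and HSPE1 (0.609) and LONP1 (1.20) after PD0332991. The 3′ end of LONP1 overlaps RPL36.

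Secreted liver proteins, which pass through the ER, were mostly higher in the treated libraries, with 18 of 20 intervals above 1 in CDK4/6 KD and 15 of 20 after PD0332991. The shares above 1 were 30% and 28.1% of all genes tested, and 32.3% and 35.6% of the better counted ones. The median log2 fold changes of the secreted proteins were 0.94 and 0.47. In scrambled against DMSO, 7 of the 19 tested had intervals above 1 and 11 under 1, with a median of -0.12. The same shares were 28.3% and 28% of all genes tested, and 44.2% and 32% of the better counted ones. ITIH1 had 149 reads in CDK4/6 KD and 2 in scrambled, and 35 in PD0332991 and 3 in DMSO. APOA2 (0.679 in CDK4/6 KD) and APOH (0.807 after PD0332991) were the firmest lower genes. APOA2 had 3863 CPM in DMSO, 7168 in scrambled and 4866 in CDK4/6 KD, so its lower value rests on scrambled. Most of these secreted proteins lay above 1 after PD0332991, while the chaperones HSPA5, HSP90B1, PDIA4 and CALR lay under 1. Some other genes of ER folding lay above 1 there, with ERP29 at 1.70, GANAB at 1.22 and CANX at 1.18. In the wider pathway, 29 intervals were above 1 and 36 under 1, with a median log2 fold change of -0.02. A relation between the secreted proteins and the chaperones was not tested.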

How the data were processed

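The authors deposited raw counts of reads per gene symbol, 1 table for each of the 4 libraries, with no normalization. Single-end reads of 75 bases came from QuantSeq libraries. The submitters' processing notes name Bowtie2, edgeR and hg19 without versions, and the annotation and strand setting are not given in the sources used here. The paper's results speak of a microarray, but whole numbers whose totals vary by library are sequencing counts and were handled as such.

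Counts of the 286 repeated symbols were summed. Libraries were scaled with TMM factors of 0.957 to 1.03 (edgeR 4.0.16, R 4.3.3). Fold changes used 0.5 added reads and needed 10 reads or more in 1 of the libraries compared, and a gene was called at 2-fold. Intervals were computed with scipy 1.17.1 and tested on simulated data. No p-value was computed, because each condition has 1 library. Genes were named as the 10 members, CDK4 and CDK6, the gene of each role with the interval end farthest above and below 1, and the 5 genes nearest to HSPA5. A result that this rule also covers is not reported here. The members and lists were chosen with earlier results of these data known. Alternatives were DESeq2 1.42.0 size factors, total counts, upper-quartile factors, quantile normalization (limma 3.58.1), another pseudocount, filter, threshold or control, and 1 entry per repeated symbol. Gene positions are from GENCODE 29 and promoters from RefSeq, both on GRCh38.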

Additional observations from a re-analysis of the deposited data

Results flagged for a closer look

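For 4 genes, the fold change in CDK4/6 KD and that after PD0332991 lay on opposite sides of 1 with both intervals clear of it. The values were 1.20 and 0.515 for HSP90B1, 1.48 and 0.772 for HYOU1, 1.07 and 0.531 for SDF2L1, and 1.54 and 0.371 for PDIA4. With 1 library on each side, the difference between the arms was not tested. For SDF2L1 the value in CDK4/6 KD is the closest to 1, and scrambled stood 1.62-fold above DMSO. Against DMSO as the control of both arms, CDK4/6 KD was also above 1 for HSP90B1 (1.12), HYOU1 (1.74), SDF2L1 (1.74) and PDIA4 (1.14).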

How the results depend on the processing

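No paired analysis was possible because each condition has 1 library, which also leaves no replicate to leave out. No fold change of a gene of the set that was clear of 1 changed direction under any setting run. DESeq2 size factors, a pseudocount of 5 reads, no filter, a filter of 50 reads and 1 entry per repeated symbol left all 30 fold changes inside their intervals. Total counts moved 10 outside, quantile normalization 9, upper-quartile factors 7 and the control of the other arm 15 of 20. Total counts shifted log2 fold changes by up to 0.10, alike for all genes of a comparison. With them the median log2 fold change in CDK4/6 KD was 0.26, and with scrambled as control that of PD0332991 was -0.85. Intervals wholly under 1 in CDK4/6 KD went from 3 genes to 2 with total counts or upper-quartile factors and to 1 with DMSO as control. Under total counts, 4 genes rather than 2 were wholly under 1 in scrambled against DMSO. With upper-quartile factors or quantile normalization, 2 genes rather than 1 were wholly above 1 after PD0332991. A 1.5-fold threshold gave 2 higher genes and 1 lower gene in CDK4/6 KD, 5 lower genes after PD0332991, and 2 higher genes in scrambled against DMSO. The ratio of read shares turned to 1.19 in CDK4/6 KD without HSPA5, and was 0.556 after PD0332991 and 1.00 in scrambled against DMSO. With the 100 most counted genes left out of the denominator, it was 0.591 and 1.12 in the latter pairs. The sum of HSP90B1 and HSP90B2P and the list without ERN2 were chosen after seeing the data, and the sum gave 0.990 for HSP90B1 in scrambled against DMSO. Depth limits DNAJB9 and EDEM1 most, at 72 to 218 reads.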
